A study of Mus musculus with 35 samples.

Results

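The transcripts described here are those of 30 genes for the enzymes, carriers and import factors that oxidize fatty acids in mitochondria and peroxisomes, taken by gene symbol. All 30 were found among the 21236 genes of the count table. RNA was sequenced from sorted microglia, the resident macrophages of the brain, in 35 samples of midbrain (n = 12), striatum (n = 12) and prefrontal cortex (PFC, n = 11) from 12 adult mice, 6 male and 6 female. The male PFC group has 5 samples, because the PFC sample of mouse 3 was lost. Every animal carried the tamoxifen-induced recombinase of the Tmem119-2A-CreERT2 allele and the red reporter Ai14(RCL-tdTomato)-D, and all were given tamoxifen, so that no group lacked the driver or the drug. Cre is expressed from the Tmem119 gene, a marker of microglia, and only tdTomato-positive cells were sequenced. Cells that lost or never switched on the reporter are therefore outside these data.

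Fatty acids enter the mitochondrial matrix as carnitine esters and are then shortened by cycles of dehydrogenation, hydration, a further dehydrogenation and thiolysis. The electrons of the first step pass through the electron transfer flavoprotein to the respiratory chain. Peroxisomes shorten very long and branched chains with a separate set of enzymes, which are made in the cytosol and imported through peroxins, and hand the products on to mitochondria. In macrophages and microglia the balance between glycolysis and fatty acid oxidation is studied as a feature of the activation state.

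Total counts ran from 37680501 to 54131421 per sample. The lowest count of any member in any sample was 378, so that counting error was small beside the spread between mice. The sums of 12 microglial markers, among them Csf1r, P2ry12 and Tmem119, came to 45630 ± 1895 CPM (midbrain, SD, n = 12), 50786 ± 2565 (striatum, n = 12) and 49649 ± 2184 (PFC, n = 11). CPM are library-scaled counts, here with TMM factors. Markers of other brain cells were low but differed between regions. The 12 neuronal markers summed to 8.59 ± 1.67, 15.6 ± 4.01 and 24.8 ± 7.96 CPM (SD) in the midbrain, striatum and PFC. In the same order, the 10 astrocyte markers summed to 260 ± 23.9, 412 ± 79.5 and 382 ± 101 CPM. The 10 oligodendrocyte markers summed to 404 ± 63.8, 492 ± 159 and 339 ± 98.2 CPM and the 9 endothelial markers to 31.3 ± 11.9, 43.6 ± 17.5 and 32.6 ± 7.78 CPM. Few genes made up much of these sums, in the midbrain Slc1a3 with 171 CPM and Cnp and Mbp with 161 and 129 CPM. Slc1a3 was highest in the PFC and Gfap and Mbp in the midbrain. The other astrocyte and oligodendrocyte markers were highest in the striatum. In sorted bulk samples a change in the make-up of the cells and a change of RNA within a cell cannot be told apart.

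The 30 transcripts differed little across the 3 regions. A region effect was called for 3 of the 30 (10%), against 8.89% of all genes tested and 11.9% of the 6981 genes with at least the mean CPM of the lowest member (edgeR quasi-likelihood F-test, Benjamini-Hochberg adjusted p under 0.05). The 3 were Hsd17b4 and Scp2 of the peroxisomal pathway and Eci2, an isomerase for unsaturated chains. A further 3, Acaa2, Etfa and Pex14, had an unadjusted p under 0.05, which 21.8% of all genes had. Blocked by mouse, with a term for each animal instead of sex, 5 members were called (14% of all genes), since Cpt1a and Pex14 joined the other 3. DESeq2 also called 5 (11.2% of all genes), here with Acaa2 and Etfa.

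Calls between pairs of regions required a region effect, p under 0.05 and a fold change over 1.2. None of the 30 transcripts met this for PFC against midbrain (5.99% of all genes), striatum against midbrain (6.47%) or striatum against PFC (3.14%) in the edgeR model of region and sex, and DESeq2 gave 0 as well. Blocked by mouse, Cpt1a met it for striatum against midbrain (1 member, 8.62% of all genes). At an unadjusted p under 0.05 alone, each of the 3 pairs held 5 members (16.7%), against 17% of all genes for PFC against midbrain, 20.1% for striatum against midbrain and 11.6% for striatum against PFC. The log2 fold changes of the members spanned -0.15 to 0.19 for PFC against midbrain (median 0.046, all genes 0.011), -0.21 to 0.26 for striatum against midbrain (median 0.016, all genes 0.012) and -0.17 to 0.21 for striatum against PFC (median -0.044, all genes 0.0081). Among the 6981 genes with at least the mean CPM of the lowest member, the medians were 0.0061, -0.017 and -0.019 in this order. When the adjusted p of the pair itself was used with no minimum on the fold change, Eci2 rose from midbrain to PFC (1 member, 6.52% of all genes called) and Hsd17b4 fell from midbrain to striatum (1 member, 7.45% of all genes called). No member passed for striatum against PFC, where 0.57% of all genes did. Keeping the region effect and p under 0.05 but no fold minimum, the pairs held 2 (7.1% of all genes), 2 (7.73%) and 3 (4.05%) members.

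For most members the data bounded how far regions could differ. The 95% intervals of all 3 pairs lay within 1.2-fold for 19 of the 30 members (63.3%). Among the 6981 genes of at least the lowest member's level the share was 32.7%. By pair the intervals lay within 1.2-fold for 27 members for PFC against midbrain, 24 for striatum against midbrain and 22 for striatum against PFC. The 11 members without such a bound in all pairs were Cpt1a, Cpt2, Acads, Echs1, Decr2, Etfa, Etfb, Hsd17b4, Scp2, Amacr and Pex14, which include Hsd17b4 and Scp2, whereas the intervals of Eci2 lay within 1.2-fold in all pairs. Within a region, the coefficient of variation over mice had a member median of 11.2% in the midbrain, 8.07% in the striatum and 10.4% in the PFC. The medians of the 6981 comparison genes were 14.6%, 11.7% and 15.5%.

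Per kilobase of annotated exon, the transcripts spanned 3.89 to 68.8 CPM per kb. The highest was Etfb (68.8), the small subunit of the electron transfer flavoprotein, at percentile 96.8 of all genes of the table. Of its 1164 exon bases, 678 overlap Gm45233 and Mir7051 of the same strand, so that its rank is uncertain. It was followed by Ech1 (58.03), an isomerase of dienoyl-CoA, and Hsd17b4 (57.96), the bifunctional enzyme of peroxisomes. The lowest were Cpt1a (3.89), the outer-membrane carnitine palmitoyltransferase, at percentile 67.2, and Slc25a20 (4.43), the carnitine-acylcarnitine carrier. These lengths join all annotated exons of a gene, so that genes with many rarely used exons, such as Acox3 with 11521 bases, come out low.

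**Figure D1:**
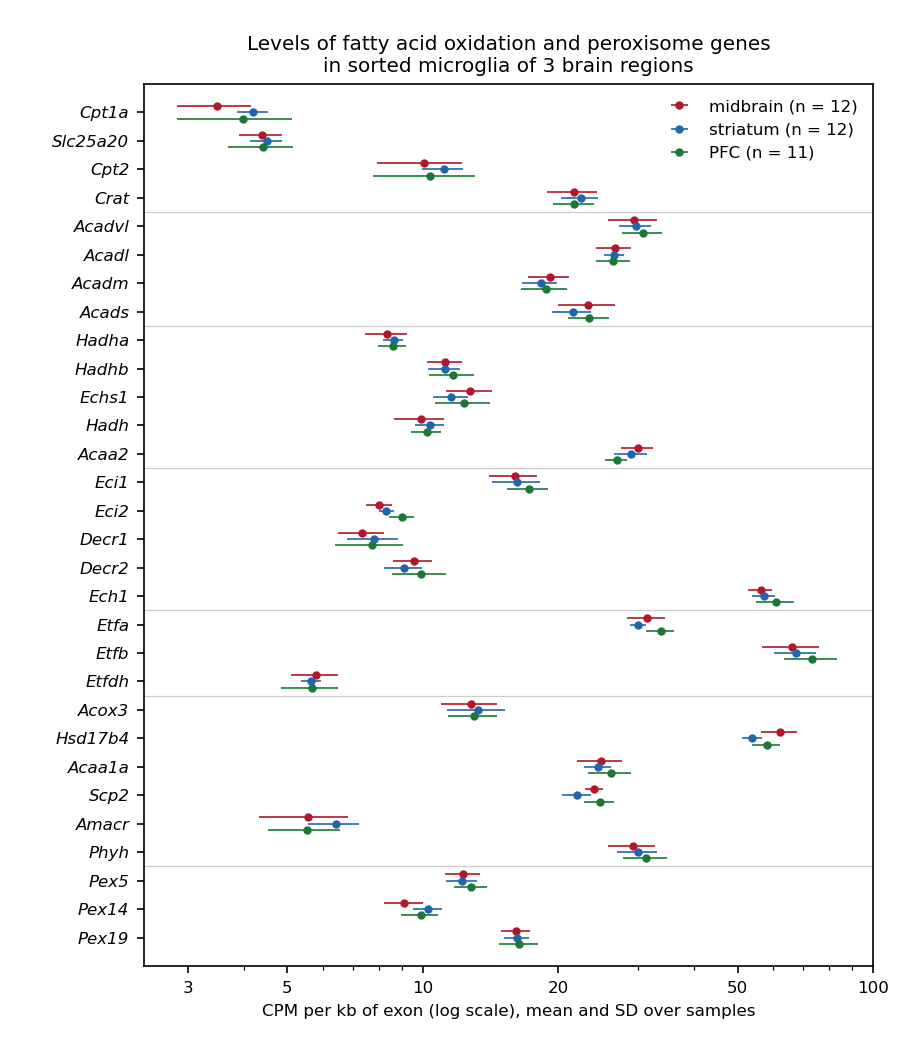
Mean CPM per kb of exon (points, log axis) and SD over samples (bars) for the 30 transcripts in midbrain (n = 12), striatum (n = 12) and PFC (n = 11), grouped by role with grey lines. Levels run from 3.49 for Cpt1a in the midbrain to 73.3 for Etfb in the PFC, while the 3 regions of one gene lie close together.

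Among the 4 transcripts of the carnitine shuttle, none had a region effect in the model of region and sex. Cpt1a, whose product makes the carnitine esters and is the controlled entry step of the pathway, ran from 18.9 to 34.96 CPM in midbrain samples (median 26.9), from 27.5 to 35.03 CPM in striatum samples (median 32.9) and from 21.2 to 44.5 CPM in PFC samples (median 32.0). The ranges of the 3 regions overlapped, and the PFC spread of 30.4 ± 8.75 CPM (SD, n = 11) was the widest. The fit gave 0.26 for the log2 fold change of striatum against midbrain (SE 0.115, edgeR adjusted p = 0.173), with a higher striatum in 10 of 12 mice. Blocked by mouse, the region effect of Cpt1a passed the threshold (adjusted p = 0.0282), and striatum was higher than midbrain by 0.29 on the log2 scale (adjusted p = 0.0122), which also met the rule with a fold change over 1.2.

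The values of Cpt1a also fell by mouse number. In the PFC, mice 1 to 6 had 21.2 to 23.5 CPM (n = 5) and mice 7 to 12 had 32.0 to 44.5 CPM (n = 6), with no overlap. The midbrain values, at 18.9 to 26.3 and 27.5 to 34.96 CPM (n = 6 each), did not overlap either, whereas the striatum values, at 27.5 to 33.4 and 31.7 to 35.03 CPM, did. Within mice 1 to 6 the log2 fold changes were 0.41 for striatum against midbrain, 0.45 for striatum against PFC and -0.038 for PFC against midbrain, and within mice 7 to 12 they were 0.14, -0.15 and 0.28. The adjusted p of the region effect came to 0.0169 in the first set and 0.169 in the second (edgeR). In all samples, with the mouse set as a covariate that was chosen after seeing the data, it was 0.0334. The difference between these sets was not tested, and the labels do not say whether the 2 sets of numbers were handled apart. The split was not particular to Cpt1a. In the PFC, Echs1 had 107.2 to 136.4 CPM in mice 1 to 6 and 89.2 to 98.99 CPM in mice 7 to 12. Its midbrain values were 106.3 to 134.2 and 87.3 to 104.05 CPM. Hadhb split in the PFC (79.2 to 92.5 and 64.4 to 76.6 CPM). Crat split in the midbrain, the other way (79.6 to 118.2 and 118.9 to 133.4 CPM). How many members or genes split in this way was not counted.

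**Figure D2:**
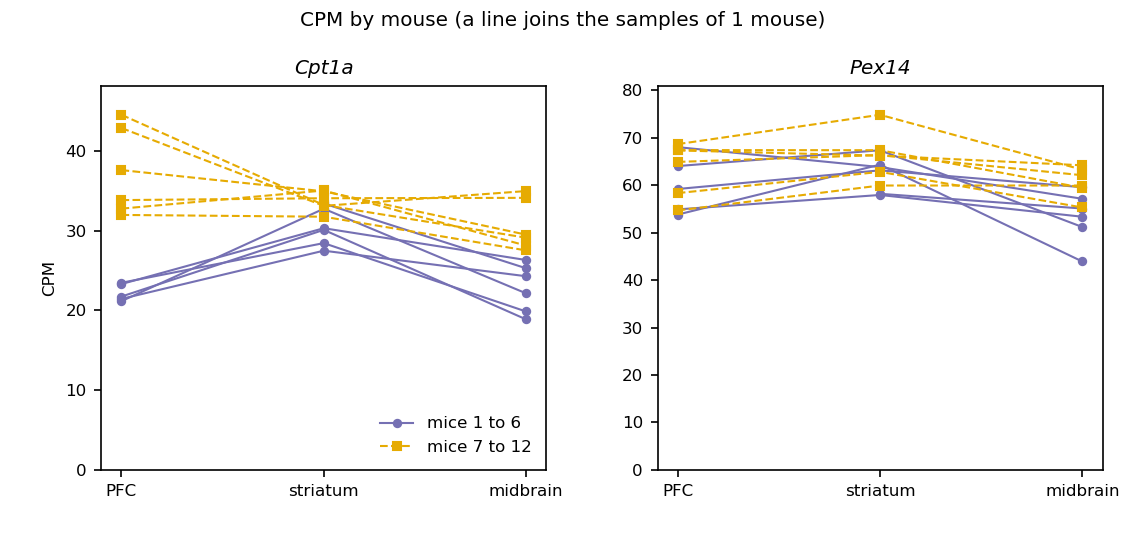
CPM of Cpt1a and Pex14 in the PFC, striatum and midbrain of each mouse, with a line joining the samples of 1 mouse; mice 1 to 6 are circles with solid lines and mice 7 to 12 squares with dashed lines. For Cpt1a, mice 1 to 6 lie at 21.2 to 23.5 CPM in the PFC and peak in the striatum, whereas mice 7 to 12 lie at 32.0 to 44.5 CPM in the PFC.

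The other carnitine transcripts had no region effect, with intervals that exceeded 1.2-fold for Cpt2 alone. Slc25a20, the carrier of the inner membrane, had 21.2 ± 2.32 CPM (midbrain, SD, n = 12), 21.8 ± 1.82 (striatum, n = 12) and 21.4 ± 3.51 (PFC, n = 11). Cpt2, which releases the acyl-CoA in the matrix, had 24.1 ± 5.20, 26.6 ± 2.80 and 24.8 ± 6.32 CPM in the same order. Crat, the carnitine acetyltransferase for short chains, had 117 ± 14.9, 121 ± 11.6 and 117 ± 12.2 CPM. Its exons share 470 bases with 2 genes of the other strand, and the use of strand in counting is not given in the sources used here.

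None of the 4 acyl-CoA dehydrogenases, which take the first step for chains of different length, had a region effect. The very-long-chain enzyme Acadvl had 79.0 ± 9.84 CPM (midbrain, SD, n = 12), 79.8 ± 6.46 (striatum, n = 12) and 82.8 ± 8.57 (PFC, n = 11), and 1151 of its 2686 exon bases overlap Dvl2 on the other strand, so that its level is uncertain. The long-chain enzyme Acadl had 53.5 ± 4.77, 53.3 ± 2.74 and 53.2 ± 4.60 CPM, and its 3 log2 fold changes were each below 0.01 in size. The medium-chain enzyme Acadm had 74.8 ± 7.71, 71.5 ± 6.40 and 73.3 ± 8.60 CPM. The short-chain enzyme Acads had 52.9 ± 7.73, 48.8 ± 4.79 and 53.2 ± 5.56 CPM, with log2 fold changes of -0.12 for striatum against midbrain and -0.12 for striatum against PFC. Acads was thus a little lower in the striatum, by less than its spread within a region.

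The next steps are carried by the trifunctional protein, made of Hadha and Hadhb, and by the single enzymes Echs1, Hadh and Acaa2. Hadha had 72.7 ± 7.80 CPM (midbrain, SD, n = 12), 75.1 ± 3.80 (striatum, n = 12) and 74.8 ± 5.23 (PFC, n = 11), and Hadhb had 74.01 ± 6.64, 73.7 ± 5.93 and 76.9 ± 8.85 CPM. Neither subunit had a region effect, and all intervals of both lay within 1.2-fold. The 2 genes lie head to head on chromosome 5 (GRCm38), Hadha on the minus strand at chr5:30118304-30155162 and Hadhb on the plus strand at chr5:30155248-30184593. The window from 250 bases before to 50 bases after the start of Hadhb (RefSeq, GRCm38.p6, chr5:30155003-30155302, plus strand) is shown because it overlaps the Hadha window. The 228 bases that lie in both windows are in capitals. The Hadha window (chr5:30154931-30155230, minus strand) is counted from the RefSeq start of Hadha at base 30154980. That base is further inside the gene than the end given above and lies outside the window shown. The capitals therefore hold neither RefSeq start.
Hadhb: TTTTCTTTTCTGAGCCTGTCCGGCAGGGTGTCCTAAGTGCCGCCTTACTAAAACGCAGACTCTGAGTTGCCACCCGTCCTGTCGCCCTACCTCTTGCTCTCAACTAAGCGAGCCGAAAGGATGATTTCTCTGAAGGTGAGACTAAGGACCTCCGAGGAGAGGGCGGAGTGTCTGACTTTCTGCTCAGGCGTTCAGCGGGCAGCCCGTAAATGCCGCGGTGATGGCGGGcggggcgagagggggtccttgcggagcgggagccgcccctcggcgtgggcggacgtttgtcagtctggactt

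None of the 3 single enzymes had a region effect in the model of region and sex. Echs1, the hydratase for short chains, had 106 ± 12.2 CPM (midbrain, SD, n = 12), 95.9 ± 8.60 (striatum, n = 12) and 102 ± 14.4 (PFC, n = 11), a log2 fold change of -0.14 for striatum against midbrain (region effect adjusted p = 0.387). Hadh, the matrix hydroxyacyl-CoA dehydrogenase, had 49.2 ± 6.26, 51.6 ± 3.70 and 50.7 ± 3.81 CPM. Acaa2, the mitochondrial thiolase of the last step, had 45.5 ± 3.75, 44.0 ± 3.78 and 40.8 ± 2.31 CPM. Acaa2 was the member with the lowest log2 fold change for PFC against midbrain, at -0.15 (edgeR adjusted p = 0.0617), and was lower in the PFC in 10 of 11 mice. Against the PFC, the striatum was higher by 0.10 on the log2 scale and in 11 of 11 mice. Its region effect missed the threshold in edgeR (adjusted p = 0.108) and passed it in DESeq2 (adjusted p = 0.0406).

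Unsaturated fatty acids need isomerases and reductases to move or remove their double bonds, and in this group 1 of 5 transcripts, Eci2, had a region effect. Eci2 (ENSMUSG00000021417, chr13:34977748-35027096, minus strand) encodes an enoyl-CoA isomerase found in mitochondria and peroxisomes. It ran from 39.3 to 48.8 CPM in midbrain samples (median 44.5), from 42.2 to 49.1 CPM in striatum samples (median 46.1) and from 44.5 to 53.8 CPM in PFC samples (median 50.8). The PFC values were the highest of the 3 regions, though the ranges overlapped. The log2 fold change of PFC against midbrain was 0.17 (SE 0.044, 95% interval 0.080 to 0.26, edgeR adjusted p = 0.0121), and Eci2 was higher in the PFC in 11 of 11 mice. Striatum against midbrain gave 0.052, and striatum against PFC gave -0.12, lower in 9 of 11 mice.

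The size of this difference was alike in mice 1 to 6 (0.18) and mice 7 to 12 (0.16). The region effect of Eci2 had an adjusted p of 0.0249 and lost the threshold without mouse 1, 4, 5, 6, 7 or 12, with adjusted p-values up to 0.0949 (without mouse 12). An index of other brain cells was taken as the mean log2 CPM of the neuronal, astrocyte, oligodendrocyte and endothelial markers in each sample. With this index as a covariate, Eci2 was the 1 member still called (adjusted p = 0.0312). Of its exon bases, 189 overlap a gene of the other strand.

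The other 4 transcripts of the group had positive log2 fold changes for PFC against midbrain and no region effect. Ech1, which moves double bonds of dienoyl-CoA, had 129 ± 7.98 CPM (midbrain, SD, n = 12), 131 ± 7.77 (striatum, n = 12) and 139 ± 13.3 (PFC, n = 11) (PFC against midbrain 0.11 log2, adjusted p of the region effect 0.281). Eci1, the mitochondrial enoyl-CoA isomerase, had 34.0 ± 4.20, 34.5 ± 4.15 and 36.5 ± 3.77 CPM. The dienoyl-CoA reductases had 28.5 ± 3.35, 30.2 ± 3.91 and 29.9 ± 5.15 CPM for the mitochondrial Decr1 and 25.3 ± 2.53, 24.1 ± 2.33 and 26.3 ± 3.63 CPM for the peroxisomal Decr2. Apart from Ech1 and Eci2, no member of this group had a p under 0.05 in any pair.

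The electron transfer flavoprotein takes electrons from the dehydrogenases, and its larger subunit Etfa came near the threshold. Etfa (chr9:55454508-55512243, minus strand) ran from 50.8 to 68.6 CPM in midbrain samples (median 56.8), from 52.0 to 58.9 CPM in striatum samples (median 54.99) and from 56.02 to 68.4 CPM in PFC samples (median 60.8). The PFC values lay above most striatum values, while the midbrain spanned both. Striatum against PFC gave a log2 fold change of -0.16 (edgeR adjusted p = 0.124), lower in 10 of 11 mice, and PFC against midbrain gave 0.10. The region effect of Etfa had an adjusted p of 0.0767 in edgeR, of 0.0284 in DESeq2 and of 0.0474 without mouse 12. The smaller subunit Etfb had 77.0 ± 11.1 CPM (midbrain, SD, n = 12), 78.5 ± 8.52 (striatum, n = 12) and 85.3 ± 11.6 (PFC, n = 11), with 0.15 for PFC against midbrain and a higher PFC in 10 of 11 mice. Etfdh, which passes the electrons on to ubiquinone, had 43.5 ± 5.21, 42.3 ± 2.19 and 42.4 ± 6.20 CPM.

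Peroxisomal oxidation held 2 of the 3 transcripts with a region effect, and both were lowest in the striatum. Hsd17b4 (ENSMUSG00000024507, chromosome 18, plus strand), the bifunctional enzyme that hydrates and dehydrogenates peroxisomal acyl-CoA, ran from 178 to 243 CPM in midbrain samples (median 213), from 172 to 199 CPM in striatum samples (median 182) and from 171 to 227 CPM in PFC samples (median 197). The midbrain values reached highest and the striatum values stayed within the narrowest range, and all 3 ranges overlapped. The log2 fold change of striatum against midbrain was -0.21 (SE 0.045, 95% interval -0.30 to -0.12, edgeR adjusted p = 0.0027), and the striatum was lower in 11 of 12 mice. The PFC lay between, with -0.10 against the midbrain (lower in 10 of 11 mice) and the striatum at -0.11 against the PFC (lower in 10 of 11 mice).

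The region effect of Hsd17b4, at an adjusted p of 0.00605, held when each of the 12 mice was left out in turn. By mouse set, striatum against midbrain gave -0.33 in mice 7 to 12 (region effect adjusted p = 0.00223), while mice 1 to 6 gave -0.084 with an adjusted p of the region effect of 0.693. PFC against midbrain gave -0.21 in the later-numbered set and 0.0049 (SE 0.067) in mice 1 to 6, a value well below its SE. Over all samples without mouse 1, PFC against midbrain gave -0.15. With the index of other brain cells as a covariate, the adjusted p of the region effect was 0.224. In that fit striatum against midbrain gave -0.14 on the log2 scale, against -0.21 without the index. The astrocyte and oligodendrocyte sums were highest in the striatum, where Hsd17b4 was lowest, and their part in the result was not tested beyond that fit.

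Scp2 (ENSMUSG00000028603, chr4:108043839-108144998, minus strand) encodes a lipid transfer protein whose longer form is the thiolase for branched chains. It ran from 76.2 to 89.5 CPM in midbrain samples (median 84.02), from 63.5 to 82.96 CPM in striatum samples (median 77.4) and from 74.7 to 94.3 CPM in PFC samples (median 86.8). The striatum was lower than the other 2 regions, which lay close together. Striatum against PFC gave -0.17 (edgeR adjusted p = 0.0794), lower in 10 of 11 mice, and striatum against midbrain gave -0.13 (adjusted p = 0.0843), lower in 11 of 12 mice. Blocked by mouse, both passed the threshold, at adjusted p-values of 0.0154 and 0.0276. PFC against midbrain was 0.042.

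In mice 1 to 6 and mice 7 to 12, striatum against PFC for Scp2 was -0.19 and -0.16. Its region effect, at an adjusted p of 0.0335, lost the threshold without mouse 1, 2, 4, 5, 9, 10, 11 or 12, with adjusted p-values up to 0.0978 (without mouse 1), and with the index of other brain cells (0.183), where striatum against PFC gave -0.15. Leaving out mouse 8, whose striatum sample of 63.5 CPM was the lowest of all, gave 0.0357. The deposited counts do not separate the long and short forms of Scp2.

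**Figure D3:**
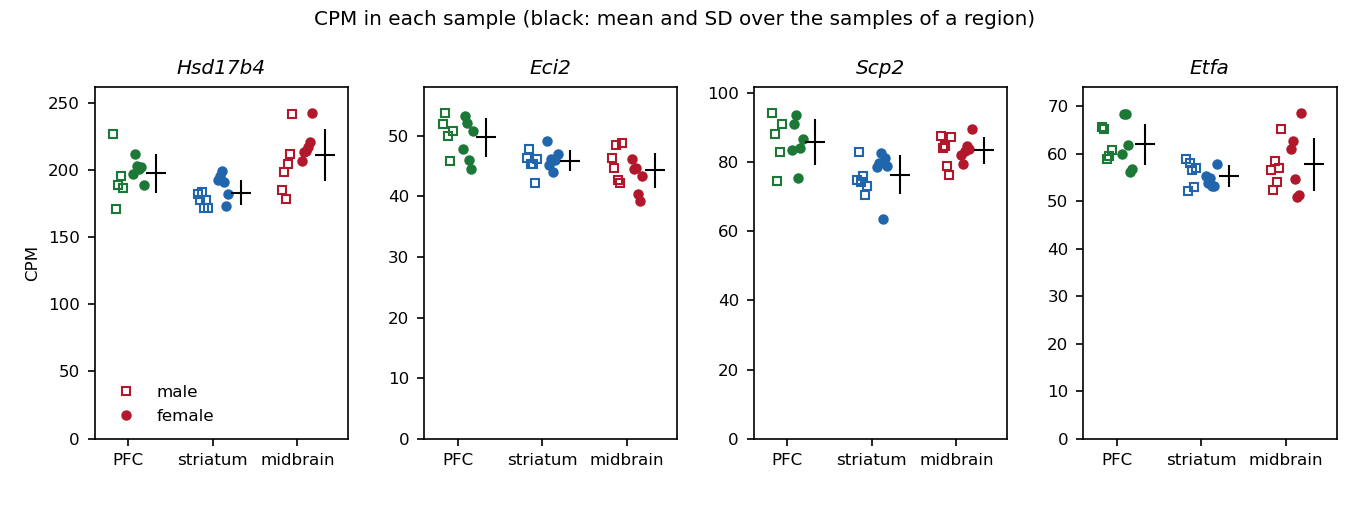
CPM of Hsd17b4, Eci2, Scp2 and Etfa in each sample of PFC, striatum and midbrain (open squares male, filled circles female), with the mean and SD over the samples of a region in black. Hsd17b4 has means of 197, 183 and 211 CPM, Eci2 of 49.7, 45.9 and 44.3, Scp2 of 86.0, 76.4 and 83.5 and Etfa of 61.9, 55.3 and 57.7 in this order, and the ranges of the regions overlap for each.

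The other 4 transcripts of peroxisomal oxidation had no region effect. Acox3, an oxidase for branched chains, had 147 ± 20.8 CPM (midbrain, SD, n = 12), 153 ± 22.7 (striatum, n = 12) and 149 ± 18.6 (PFC, n = 11), and 700 of its exon bases overlap a gene of the other strand. Acaa1a, a peroxisomal thiolase with the close copy Acaa1b, had 109.7 ± 12.6, 108 ± 7.52 and 115 ± 12.5 CPM. Phyh, the hydroxylase that starts the breakdown of phytanic acid, had 55.4 ± 6.55, 56.9 ± 5.75 and 59.4 ± 6.58 CPM. Amacr, the racemase that lets branched chains enter oxidation, was the lowest member in CPM, at 14.5 ± 3.26, 16.7 ± 2.15 and 14.4 ± 2.62. It had the widest interval for striatum against PFC among these 4, with 0.21 (95% interval -0.013 to 0.44), so that a difference of over 1.2-fold could not be told from none.

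Of the 3 import factors, none had a region effect in the model of region and sex. Pex14, the membrane dock for the import receptor, ran from 43.9 to 64.2 CPM in midbrain samples (median 58.3), from 57.95 to 74.9 CPM in striatum samples (median 64.1) and from 53.8 to 68.7 CPM in PFC samples (median 64.1). Midbrain values were lower than striatum values in 11 of 12 mice, at a log2 fold change of 0.17 for striatum against midbrain (edgeR adjusted p = 0.0540). Blocked by mouse, the region effect of Pex14 had an adjusted p of 0.0157, against 0.104 without the block and 0.0418 with the mouse set (numbers up to 6 or above) as a covariate, and striatum against midbrain gave 0.18 (adjusted p = 0.00693). Its exons share 1776 of 6272 bases with Gm17029 on the other strand, so that its level is uncertain. Pex5, the receptor that binds the import signal of matrix enzymes, had 48.5 ± 4.43 CPM (midbrain, SD, n = 12), 48.2 ± 3.88 (striatum, n = 12) and 50.5 ± 4.27 (PFC, n = 11). Pex19, which carries membrane proteins to peroxisomes, had 61.5 ± 4.59, 61.7 ± 4.07 and 62.5 ± 6.25 CPM.

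Summed over the 30 transcripts, the level was 2023 ± 79.2 CPM (midbrain, SD, n = 12), 2005 ± 51.9 (striatum, n = 12) and 2069 ± 50.9 (PFC, n = 11). The ranges were 1887 to 2200.5 CPM, 1928 to 2089 CPM and 1973 to 2168 CPM, and they overlapped. By role, the sum of peroxisomal oxidation was 622 ± 43.8, 594 ± 26.3 and 622 ± 26.6 CPM. The auxiliary enzymes summed to 261 ± 15.97, 265 ± 14.3 and 281 ± 21.4 CPM and the electron transfer subunits to 178 ± 14.8, 176 ± 9.48 and 189.7 ± 15.4 CPM. For these sums the largest differences between regions were near the SD within a region, some above it and some below, and no test was made on them.

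Promoter windows of 300 bases (250 before to 50 after the RefSeq start, GRCm38.p6) were at hand for 24 of the 30 members. They were searched on both strands for the nuclear receptor half-site AGGTCA, for its direct repeat with 1 base between, AGGTCANAGGTCA, which PPAR and RXR bind, and for TNAAGGTCA, the element of the estrogen-related receptors. The direct repeat was in 0 of 24 member windows and in 0.0481% of those of 27025 genes. TNAAGGTCA was in 0 of 24 and in 1.43% of all. The half-site alone, which lies inside both, was in 6 of 24 (25%) and in 18.1% of all, in the windows of Acadm, Acadvl, Cpt1a, Echs1, Phyh and Scp2. The windows of Scp2 (chr4:108118498-108118797, minus strand) and Eci2 (chr13:34994095-34994394, minus strand) are shown as those of 2 of the 3 transcripts with a region effect, with the half-site in capitals. In Scp2 it lies at positions -109 to -104 from the start, and Eci2 has none. Counted from RefSeq starts, both windows lie inside the gene spans given above, away from their ends at 108144998 (Scp2) and 35027096 (Eci2).
Scp2: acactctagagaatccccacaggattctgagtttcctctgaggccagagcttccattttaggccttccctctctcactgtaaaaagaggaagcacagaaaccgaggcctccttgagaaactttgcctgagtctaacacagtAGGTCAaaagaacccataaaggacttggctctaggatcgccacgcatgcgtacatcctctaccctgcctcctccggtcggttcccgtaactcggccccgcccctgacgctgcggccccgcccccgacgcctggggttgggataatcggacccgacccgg
Eci2: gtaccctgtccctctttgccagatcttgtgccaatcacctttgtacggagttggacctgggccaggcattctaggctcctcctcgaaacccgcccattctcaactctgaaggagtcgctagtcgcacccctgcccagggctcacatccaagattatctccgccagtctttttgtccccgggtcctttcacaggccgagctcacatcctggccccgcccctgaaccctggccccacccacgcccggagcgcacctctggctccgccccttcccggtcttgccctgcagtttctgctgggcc

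No sex difference was called for these transcripts. None of the 30 had a sex effect at p under 0.05 with a fold change over 1.2 (edgeR), and DESeq2 gave 0 too. The edgeR share was 4.13% of all genes but 1.69% of the 6981 genes with at least the mean CPM of the lowest member. The log2 fold changes of female against male spanned -0.073 to 0.12 with a median of 0.039, and 29 of 30 had a 95% interval within 1.2-fold. At p under 0.05 alone 2 members were found, both higher in females. Crat had 112.5 ± 10.9 CPM (SD over 6 male mice, means per mouse) and 123 ± 6.78 CPM (6 female mice), a log2 fold change of 0.12 (edgeR adjusted p = 0.517). Hsd17b4 had 191 ± 8.35 and 203 ± 3.43 CPM, a log2 fold change of 0.084 (edgeR adjusted p = 0.538). With the counts summed per mouse, which gives each animal 1 value, neither had an unadjusted p under 0.05. With no fold minimum, the 2 members stand against 8.02% of all genes.

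Within single regions the count of members with a sex difference was 0 in the midbrain (4.84% of all genes), 0 in the striatum (2.28%) and 0 in the PFC (5.29%). Among the 6981 genes of at least the lowest member's level, the shares were 2.49%, 1.56% and 3.21%. At p under 0.05 alone the count of members was 0, 1 and 0. The 1 member was Eci1 in the striatum, with 27.7 to 36.7 CPM in males and 34.9 to 43.2 CPM in females, a log2 fold change of 0.22 (SE 0.097) and an adjusted p of 1 in edgeR (2.74% of all genes at p under 0.05). It fell outside the rule for named transcripts and was picked after its values were seen. No member had a region by sex interaction at an adjusted p under 0.05 or at p under 0.05, and 0 of all genes passed that test (0%).

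A second list of 64 genes of the same pathways, of which 59 were in the table, was set beside the members. A region effect was called for 8 of the 59, against 8.89% of all genes. Under the rule for pairs, 3 differed for PFC against midbrain (5.99% of all genes), 3 for striatum against midbrain (6.47%) and 0 for striatum against PFC (3.14%). Rxra, the nuclear receptor partner of PPAR, had 19.8 ± 4.05 CPM (midbrain, SD, n = 12), 25.05 ± 3.12 (striatum, n = 12) and 26.4 ± 3.91 (PFC, n = 11), and was higher in striatum (log2 0.34) and PFC (0.42) than in the midbrain. Slc27a1, a fatty acid transport protein, was likewise higher in both, at 14.5 ± 3.01, 20.3 ± 3.69 and 18.2 ± 3.19 CPM. These 2 moved in the same way, lowest in the midbrain.

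Abcd2, a peroxisomal transporter of very long chains, was lower in the PFC (94.5 ± 10.6 CPM) than in the midbrain (120.1 ± 16.8 CPM) by -0.33 on the log2 scale, in 11 of 11 mice. Acsl6, an acyl-CoA synthetase, was higher in the striatum (6.81 ± 3.44 CPM) than in the midbrain (2.97 ± 1.35 CPM), 2.29-fold, in 9 of 12 mice. The astrocyte and oligodendrocyte sums were also highest in the striatum, and with the index of other brain cells as a covariate the adjusted p of the region effect of Acsl6 was 0.720 and striatum against midbrain gave 0.39 on the log2 scale, against 1.196 without it. Slc27a1 (0.324) and Cat (0.159) lost the threshold in that fit as well, and Rxra, Abcd2, Acsl4 and Far1 did not. Acsl4, Cat and Far1 also had a region effect, with fold changes of at most 1.2 in every pair. Acsl4, a synthetase for arachidonic acid (midbrain 99.7 ± 7.90 CPM, striatum 83.9 ± 7.72, PFC 83.4 ± 9.18), and Far1, a reductase of ether lipid synthesis (97.1 ± 10.999, 83.8 ± 7.68 and 82.4 ± 5.60), were highest in the midbrain. Cat, the peroxisomal catalase, had 143.5 ± 12.4, 135 ± 10.9 and 154 ± 12.7 CPM. For sex, 3 of the 59 were called (4.13% of all genes), Pex26 higher and Acot2 and Acaa1b lower in females, each with an adjusted p over 0.05 (0.164, 0.261 and 0.587) and below 10 CPM.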

How the data were processed

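Counts per gene were measured by RNA sequencing in 35 samples of sorted microglia. The deposited values are raw counts by Ensembl gene, which the authors left unnormalized. According to the methods and the submitters' processing notes, reads were checked with FastQC, trimmed with Trimmomatic and aligned to GRCm38 with HISAT2, and genes of low expression were removed before deposit. The counting tool, annotation release and use of strand are not given in the sources used here. Reads of overlapping genes and of close copies such as Acaa1a and Acaa1b may therefore be shared.

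Groups follow the region and sex labels, and the number in a title is taken as the mouse. 1 column named PFC for mouse 3 carries a striatum label and was used as striatum, and leaving it out left the same 3 members called. Symbols (21103 of 21236 genes) and exon lengths come from GENCODE M21. Fits used edgeR 4.0.16 in R 4.3.3 (TMM, robust quasi-likelihood), with DESeq2 1.42.0 as an alternative, limma 3.58.1 loaded by edgeR, and Python 3.11.15 with matplotlib 3.10.9. An additive model of all samples gave region, pairs of regions and sex. A model of 6 group means gave the interaction and the sex differences of single regions. A region effect or interaction needed an adjusted p under 0.05, a pair also p under 0.05 and a fold change over 1.2, and sex p under 0.05 with that fold change. Those are the study's cut-offs, with pairwise and sex p-values read as unadjusted. Intervals are the log2 fold change with its SE and the fitted degrees of freedom.

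The mouse pairs samples of different regions. Over 12297 genes, deviations from group means correlated at a mean r of 0.22 within mice (34 pairs, -0.13 to 0.43) and -0.043 between mice (170 pairs). The main fit treats samples of 1 mouse as independent in its p-values for region, pairs and sex and in its intervals. The block by mouse for regions and counts summed per mouse for sex were therefore also fitted. The additive fit was tested on simulated counts for PFC against midbrain and for sex, with samples drawn independently and no effect of the mouse. That run does not bear on the block, the interaction, the sex differences of single regions or DESeq2. All 30 members are accounted for, with full statistics for those called or at an adjusted region p under 0.1, and in the second list each gene with a region effect or sex call is named, except 1 that is not reported here. Cpt1a, Pex14 and Acaa2 were described further after their values were seen. Of the second list, Cpt1b, Acox2, Slc27a2, Ppara and Pparg are not analysed here. Of the border macrophage markers 5 summed to 5.82 to 7.05 CPM per region. The members, lists and tests were chosen with earlier results of these data known, and neither counts of members nor their patterns are independent support.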

Additional observations from a re-analysis of the deposited data

Results flagged for a closer look

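Values of 1 sample stood apart from the other 4 or 5 of its region and sex (gap over range above Dixon's 95% critical value) in 11 of the 180 groups tested, for 9 members. Chance gives about 1 in 20 groups. In the striatum of the female mouse 6, 3 members were high together. These were Amacr with 22.2 CPM (others 15.8 to 17.5), Eci1 with 43.2 CPM (34.9 to 36.7) and Etfb with 101 CPM (73.7 to 82.4). In the striatum of the male mouse 3, the sample whose column name and label disagree on the region, Crat was low at 95.1 CPM (115 to 127) and Hadha high at 83.5 CPM (71.7 to 75.4). Male mouse 5 had a low midbrain value of Hadha, 52.5 CPM (69.7 to 77.8), and a high PFC value of Ech1, 165 CPM (134 to 142). Acadvl was high in the midbrain of male mouse 11, at 99.9 CPM (67.8 to 78.0), and of female mouse 12, at 97.5 CPM (74.97 to 82.1). Acads was high in the midbrain of female mouse 2, at 61.2 CPM (49.5 to 53.2). Scp2 was low in the striatum of female mouse 8, at 63.5 CPM (78.7 to 82.7).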

How the results depend on the processing

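The region effect (3 members) came to 5 with DESeq2, 5 with the replicate block (the mouse in place of sex), 6 with a covariate for mice 1 to 6 against 7 to 12 that was chosen after seeing the data, and 1 each in mice 1 to 6 alone (Cpt1a), in mice 7 to 12 alone (Hsd17b4) and with the index of other brain cells (Eci2). The same settings moved the call over all genes from 1888 to 2369, 2977, 2710, 512, 1183 and 1307. Leaving out 1 mouse gave 1 to 3 members, with 1 without mouse 1, 4 or 5. For pairs (0 each), striatum against midbrain gave 1 in mice 1 to 6, 1 in mice 7 to 12, 1 with the block and 1 with the mouse-set covariate, and striatum against PFC gave 1 in mice 1 to 6. Dropping the minimum on the fold change gave 2 for PFC against midbrain, 2 for striatum against midbrain, 3 for striatum against PFC, 2 for sex and 1 for sex within the striatum, and adjusted p-values of the pair gave 1, 1 and 0 for the pairs. Sex within the striatum was 0 or 1 without a mouse (1 without mouse 1) and 1 in mice 7 to 12, and sex within the PFC was 1 in mice 1 to 6. Members within 1.2-fold in all pairs (19) numbered 8 in mice 1 to 6, 13 in mice 7 to 12, 24 with the block and 17 to 21 without a mouse. Genes of the second list with a region effect (8) numbered 1 in mice 1 to 6, 4 in mice 7 to 12, 5 with the index, 13 with the block and 6 to 10 without a mouse. Of single values, Hsd17b4 in PFC against midbrain came to 0.0049 (SE 0.067) in mice 1 to 6. Its sign differed from that of the main fit, but its size was well below its SE. The cause of these changes was not tested, and the single sets also hold fewer samples. The block changed no other count of members under the study's rules, and the interaction and the summed counts per mouse gave 0 members. Other normalization, a minimum of 10 counts in every sample and leaving out the striatum sample of mouse 3 gave the same counts of members for region, pairs and sex. With at least 378 counts for each member in each sample, depth sets less of the error than the spread between samples.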
